A study of Mus musculus with 44 samples.

Results

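Of 43 lymphomas from Eµ-myc mice, 4 stood apart by genes of the supporting tissue of the tumour. They were chosen by their measured levels, as the 4 lymphomas with the highest mean of Col4a1, Col4a2, Bgn and Cav1 after the mean of each array set had been subtracted, and they are called stroma-rich here and named by their title numbers, 59, 35, 78 and 34. The other 39 lymphomas served as the comparison, and the series held 44 arrays in all, since 1 more array was labelled spleen. Every animal carried the Eµ-myc transgene, in which the immunoglobulin heavy chain enhancer drives Myc in cells of the B lineage, so that the tumour cells are B cells and vessels, fibroblasts and fat come from the host tissue. The labels give no treatment, age, sex or tumour site. They describe extraction both from frozen tissue and from pelleted cells, without saying which array followed which route. Nothing in them says that the lymphomas are from separate animals, and the p-values measure the spread between these arrays, which may be technical.

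All values are log2 expression levels from Affymetrix mouse arrays, on which 1 unit is a 2-fold change. The arrays lay in 2 sets with different medians, 1 with the lower title numbers (36 lymphomas) and 1 with the higher (7 lymphomas and the spleen). All 4 stroma-rich lymphomas lay in the first set, so with the set as a covariate each difference is the mean of the 4 minus the mean of the other 32 lymphomas of that set, and levels below are compared with those 32. Array medians were 6.29 to 6.46 in the 4 and 6.22 to 6.34 in the 32. Lymphoma 59 had the highest median, 6.46. It also had 1245 genes above and 2609 genes below every one of the other 32, against 345 to 760 above and 565 to 1096 below for lymphomas 35, 78 and 34. Counts of called genes are therefore given with and without lymphoma 59 for most lists. Differences of single genes include lymphoma 59 unless stated, and its high values raise many of those of stromal genes. The 3′ minus 5′ level of Gapdh, a measure of RNA integrity, was 0.51, 0.13, 0.07 and 0.24 in lymphomas 59, 35, 78 and 34 and -0.11 to 1.04 in the 32. Counts of calls with arrays scaled to equal medians are given below, and the cause of the unequal medians was not tested.

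Stroma is the tissue that carries a tumour. Its fibroblasts lay down fibrillar collagens and proteoglycans, its endothelial cells and the pericytes around them build vessels on a sheet of basement membrane, and in lymphoid organs special stromal cells make the chemokines that place lymphocytes. Type IV collagen, of which Col4a1 and Col4a2 encode the 2 commonest chains, is the scaffold of basement membranes. Bgn encodes biglycan, a small proteoglycan of the matrix, and Cav1 encodes caveolin, the coat protein of the membrane pits that abound in endothelium and fat cells. In a bulk sample, fewer cells of a type and less RNA per cell cannot be told apart.

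The 2 collagen chains of the rule lie head to head and share a promoter region, which is shown because both genes entered the choice of the lymphomas. The windows are 250 bases before to 50 bases after each gene's start, from RefSeq on GRCm38.p6, at chr8:11312777-11313076 on the minus strand and chr8:11312555-11312854 on the plus strand. The 78 bases that both windows cover are in capitals.
Col4a1: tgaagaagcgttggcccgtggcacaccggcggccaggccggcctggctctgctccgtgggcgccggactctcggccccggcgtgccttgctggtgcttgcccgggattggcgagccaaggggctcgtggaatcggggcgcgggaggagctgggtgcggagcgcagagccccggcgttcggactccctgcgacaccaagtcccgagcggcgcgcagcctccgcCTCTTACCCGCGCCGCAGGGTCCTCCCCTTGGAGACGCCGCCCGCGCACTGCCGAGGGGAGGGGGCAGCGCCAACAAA
Col4a2: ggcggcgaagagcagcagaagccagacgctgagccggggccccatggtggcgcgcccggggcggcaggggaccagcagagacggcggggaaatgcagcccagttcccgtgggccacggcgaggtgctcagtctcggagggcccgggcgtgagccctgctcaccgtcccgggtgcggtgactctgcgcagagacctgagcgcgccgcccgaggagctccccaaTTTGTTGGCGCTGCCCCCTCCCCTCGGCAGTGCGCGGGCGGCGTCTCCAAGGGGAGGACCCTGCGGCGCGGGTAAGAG

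Promoter windows of 3 more genes are shown for the pattern that each had. Rgs5 had the largest difference of all genes tested, and Cxcl12 separated the groups fully. Cxcl12 also had a positive slope on the selection score in the other 39 lymphomas, which was not called without lymphoma 52. Glycam1 was high in lymphoma 78 and in none of the other 35 of its set. Capitals mark GGGCGG (the GC box) or CCAAT on either strand. No GC box overlaps a CCAAT, and 1 pair of GC boxes in the Cxcl12 window shares 1 base. The windows lie at chr1:169655251-169655550 (plus strand), chr6:117168285-117168584 (plus strand) and chr15:103565032-103565331 (minus strand).
Rgs5: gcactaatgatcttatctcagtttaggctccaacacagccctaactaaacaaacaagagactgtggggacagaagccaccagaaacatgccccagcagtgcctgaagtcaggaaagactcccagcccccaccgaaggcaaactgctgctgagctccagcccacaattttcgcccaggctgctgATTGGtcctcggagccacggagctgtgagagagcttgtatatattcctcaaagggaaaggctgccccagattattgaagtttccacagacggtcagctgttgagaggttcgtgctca
Cxcl12: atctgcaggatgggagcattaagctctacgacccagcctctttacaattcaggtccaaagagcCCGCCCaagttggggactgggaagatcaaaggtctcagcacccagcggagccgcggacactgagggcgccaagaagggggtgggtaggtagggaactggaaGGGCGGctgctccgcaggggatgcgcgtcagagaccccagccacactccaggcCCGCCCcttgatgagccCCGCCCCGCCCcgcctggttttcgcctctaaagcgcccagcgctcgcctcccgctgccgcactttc
Glycam1: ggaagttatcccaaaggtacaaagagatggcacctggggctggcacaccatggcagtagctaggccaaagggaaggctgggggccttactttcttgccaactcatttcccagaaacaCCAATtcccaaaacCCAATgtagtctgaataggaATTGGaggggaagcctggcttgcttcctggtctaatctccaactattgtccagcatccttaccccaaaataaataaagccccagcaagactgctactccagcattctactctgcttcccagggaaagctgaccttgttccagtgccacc

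The Cxcl12 window held 5 GC boxes and 0 CCAAT, the Rgs5 window 1 CCAAT and 0 GC boxes, and the Glycam1 window 3 CCAAT and 0 GC boxes. The Col4a1 window held 1 GC box and 1 CCAAT, and the Col4a2 window 3 and 1. Of all 32851 promoter windows of this length, 35.7% held a GC box and 37.4% a CCAAT, so the letters are common and a match is a description.

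The selection score, the set-centred mean of the 4 genes, was 4.80 in lymphoma 59, 3.12 in lymphoma 35, 2.53 in lymphoma 78 and 2.08 in lymphoma 34. The next were lymphoma 52 at 0.50 and a lymphoma of the second set at 0.20. The other 32 of the first set lay between -0.63 and 0.50 with a median of -0.40. The gap between lymphomas 34 and 52 was wider than the whole range of the other 32. The same 4 lymphomas were chosen when any of the 4 genes was left out or used alone, with the mean over probe sets, with equal array medians and without centring on the sets.

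**Figure D1:**
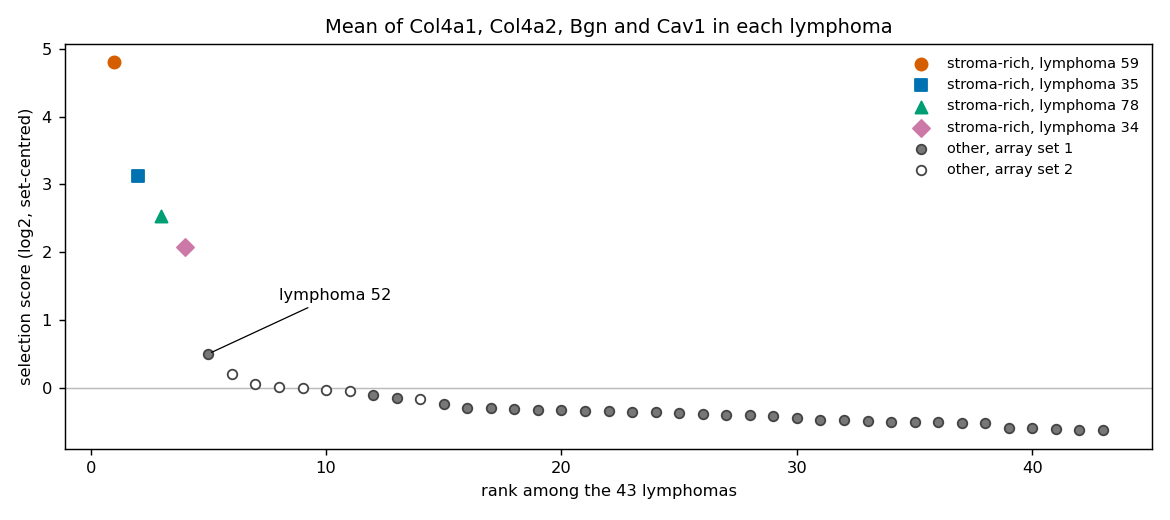
Selection score of each of the 43 lymphomas (vertical axis, log2, mean of 4 genes minus the set mean) against its rank (horizontal axis). Coloured points are the 4 stroma-rich lymphomas at 2.08 to 4.80, filled grey points the other lymphomas of the first array set (set 1) and open points those of the second, all at or under 0.50.

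The levels of the 4 genes are a description, since they chose the lymphomas. Col4a1 read 9.50, 8.55, 7.59 and 7.08 in lymphomas 59, 35, 78 and 34, and Col4a2 read 10.90, 9.38, 8.54 and 8.47. Bgn read 11.23, 8.77, 8.88 and 7.78, and Cav1 read 10.13, 8.34, 7.68 and 7.54. Lymphoma 52, just outside the choice, had Bgn at 7.52 and Cav1 at 6.50 but Col4a1 at 5.46 and Col4a2 at 5.07. It lay close to lymphoma 34, the lowest of the 4, in the proteoglycan and far below all 4 in basement membrane collagen.

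Beyond the genes of the rule, 744 of 12389 genes tested (6.01%) were higher and 1058 (8.54%) lower in the stroma-rich lymphomas at an adjusted p under 0.05 (limma, Benjamini-Hochberg over all genes). At a difference of at least 2-fold, 309 (2.49%) were higher and 7 (0.0565%) lower. When lymphoma 59 was left out, 289 genes (2.33%) were called higher, and 284 (2.29%) were called both ways. Leaving it out gave 104 genes (0.839%) called lower, and 100 (0.807%) were called both ways. Of the 1058 lower genes, 954 differed by less than 0.5 and 747 had a mean level below the median of all genes. The median difference of all genes was -0.10, and -0.17 when arrays were scaled to equal medians. That scaling turned the split of calls from 41.3% higher to 20.2% higher, and leaving the set out of the model turned it to 73.7% higher. A total of 79 genes (0.638%) lay in all 4 stroma-rich lymphomas above the highest of the other 32, and 27 (0.218%) lay in all 4 below the lowest.

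The stromal lists that follow hold genes of the same cells as the genes of the rule. Their counts of called genes are therefore a description, and nothing is read from their p-values. They stand beside the 6.01% of all genes called higher (2.33% without lymphoma 59) and the 0.638% that separated the groups fully.

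Fibrillar and other interstitial collagens, the load-bearing fibres laid down by fibroblasts, were high in all 4 lymphomas. Of 12 measured, 8 were called higher (7 without lymphoma 59) and 0 lower, with a median difference of 2.29 (1.51 without lymphoma 59), and 5 separated the groups fully. Col6a3, a chain of the beaded-filament collagen, read 9.53, 7.43, 7.87 and 7.11 in lymphomas 59, 35, 78 and 34 and 4.60 to 5.26 (median 4.93) in the other 32, a difference of 3.06 ± 0.17 (SE). Col1a1, a chain of type I collagen, read 10.20, 6.66, 5.57 and 5.55 against 4.36 to 5.12 (median 4.80). Its partner chain Col1a2 read 12.64, 9.57, 9.59 and 8.46 against 4.67 to 8.92 (median 5.25), a difference of 4.56 ± 0.47. Lymphoma 52 held the 8.92, which overlapped lymphoma 34. Col3a1, a collagen of soft tissue, read 13.07, 10.20, 7.94 and 9.04, and its highest value among the other 32 was 9.52, above lymphomas 78 and 34.

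Basement membrane genes other than type IV collagen were less uniform. Of 15 measured, 7 were called higher and 0 lower, 4 without lymphoma 59, and 1 separated the groups fully. This was Col15a1, a collagen that anchors basement membranes, at 8.44, 7.01, 6.29 and 6.14 against 5.26 to 5.98. Sparc, a secreted protein that binds collagen, read 12.34, 9.97, 9.17 and 8.71 against 5.36 to 8.89 (median 6.01). Lama4, the laminin chain of vessel walls, read 7.22, 5.63, 5.74 and 5.20 against 4.88 to 5.39, so that lymphoma 34 lay inside the range of the others. Hspg2, the core protein perlecan, read 8.93, 8.54, 8.96 and 8.51 against 8.22 to 9.15 and did not separate at all.

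Among 23 proteoglycans and matrix glycoproteins, 17 were called higher (10 without lymphoma 59), with a median difference of 0.95 (0.42 without it). Fbln5, which helps to assemble elastic fibres, read 7.92, 5.49, 6.08 and 5.93 against 3.16 to 3.89 in the other 32, a difference of 2.83 ± 0.17. Postn, a matrix protein of remodelling tissue, read 9.44, 6.10, 5.80 and 7.68 against 4.28 to 4.76. These 2 genes were the list members whose 4 values all lay above the other 32. Dcn, the proteoglycan decorin, read 12.93, 9.64, 10.82 and 9.69, and lymphoma 52 came to 9.77 among the others, above lymphomas 35 and 34. Enzymes and chaperones that process collagen gave 16 of 20 called higher (11 without lymphoma 59). Serpinh1, the collagen chaperone, read 10.66, 6.88, 7.37 and 6.84 against 5.06 to 6.73, and Timp3, an inhibitor of matrix proteases, read 9.29, 6.80, 6.11 and 6.15 against 4.48 to 5.60.

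Of 23 genes of blood endothelium, the lining of vessels, 19 were called higher (16 without lymphoma 59) and 0 lower, and 9 separated the groups fully. Ptprb, the phosphatase of endothelial junctions, read 7.53, 6.10, 5.56 and 6.09 against 3.97 to 4.44 (median 4.17), a difference of 2.14 ± 0.14. Plvap, which forms the diaphragms of fenestrated vessels, read 9.24, 6.66, 7.63 and 7.13 against 4.87 to 5.58. Kdr, the main receptor for vascular endothelial growth factor, read 8.19, 6.31, 6.61 and 6.54 against 4.85 to 5.79. All of these values lay above the highest of the other 32. Vwf, the clotting factor carrier stored in endothelium, followed in 3 of the 4, at 7.82, 5.70, 3.77 and 5.58 against 3.41 to 4.32, with lymphoma 78 inside the range of the others. Pecam1, which B cells and platelets also carry, read 8.07, 7.45, 7.57 and 6.94 against 4.78 to 8.38 and gave no separation.

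**Figure D2:**
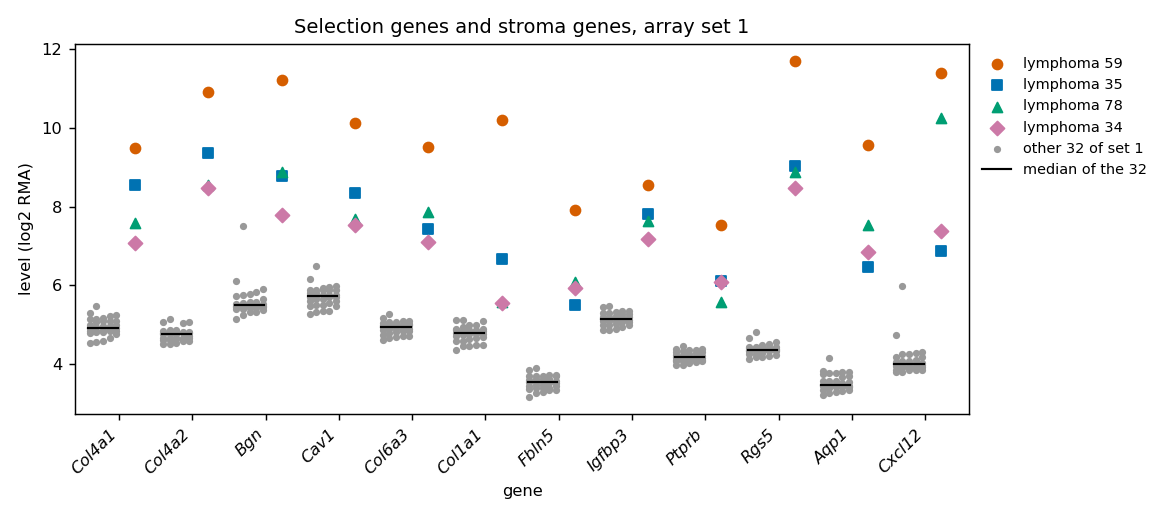
Level (log2 RMA, vertical axis) of the 4 selection genes and 8 further stroma genes (horizontal axis) in the 36 lymphomas of set 1. Coloured symbols are the 4 stroma-rich lymphomas, grey points the other 32 and black lines their median. Lymphoma 59 was the highest for each of the 12 genes shown, and all 4 coloured symbols lie above the grey points for each.

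The list of pericytes, the contractile cells around small vessels, and smooth muscle held the gene with the largest single difference of the whole comparison. Rgs5, a regulator of G protein signalling used as a pericyte marker, read 11.71, 9.04, 8.87 and 8.46 in lymphomas 59, 35, 78 and 34 and 4.11 to 4.80 (median 4.36) in the other 32, a difference of 5.15 ± 0.22. Tagln, an actin-binding protein of smooth muscle, read 7.48, 6.28, 7.27 and 7.10 against 5.15 to 6.01. Of 16 genes of pericytes and smooth muscle, 9 were called higher (7 without lymphoma 59). Acta2, smooth muscle actin, was highest in lymphoma 78 at 9.31, but lymphoma 83 among the others came to 8.83. Aqp1, the water channel of capillary endothelium and red cells, belonged to no list and read 9.56, 6.46, 7.53 and 6.85 against 3.21 to 4.14, a difference of 4.07 ± 0.22.

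Lymphatic endothelium had 4 of 7 members called higher (2 without lymphoma 59) and 0 that separated fully. Lyve1, the hyaluronan receptor of lymphatic and sinus endothelium, read 6.38 in lymphoma 78 and 5.90 in lymphoma 34 but 4.55 in lymphoma 59 and 4.43 in lymphoma 35, against 4.21 to 5.39 in the others. Prox1, the transcription factor that defines lymphatic identity, read 2.97 to 3.16 in the 4 and 3.03 to 3.46 in the other 32, near the lowest values on the arrays.

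Fibroblast genes gave 10 of 21 called higher (8 without lymphoma 59), with a median difference of 0.53 that came to 0.11 without lymphoma 59. Igf1, the growth factor that stromal cells secrete, read 8.38, 6.60, 6.72 and 7.45 against 4.79 to 6.25. Pdgfra, the receptor that marks fibroblasts, read 9.20, 6.04, 6.91 and 4.74 against 3.94 to 5.64, so lymphoma 34 lay inside the range of the others. Of the IGF binding proteins, Igfbp3, the main carrier of IGF in blood, read 8.56, 7.80, 7.63 and 7.18 against 4.86 to 5.47, a difference of 2.65 ± 0.12. With Igf1 it was 1 of 2 members called among 8 of that list, and both separated the groups fully. Of 19 genes of the TGF-beta and BMP pathway, 6 were called higher (3 without lymphoma 59), among them the matrix signal protein Ccn2 at 8.88, 6.94, 5.17 and 6.93 against 4.27 to 4.90. Of 16 integrin and focal adhesion genes 3 were called (1 without lymphoma 59), and of 6 genes of the caveolar coat, other than the Cav1 of the rule, 2 were called.

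Complement components and their inhibitors, which stromal cells and macrophages secrete, were called higher in 6 of 6 members measured (4 without lymphoma 59). Serping1, the inhibitor of the first complement component, read 11.38, 7.73, 9.12 and 7.80 against 3.69 to 7.40 (median 3.97), a difference of 4.85 ± 0.40. The 7.40 belonged to lymphoma 52, which also had the highest median of this list among the other 32.

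The stroma of lymphoid organs attracts and feeds lymphocytes, and 8 of its 14 measured genes were called higher (5 without lymphoma 59). Cxcl12, the chemokine that retains B cell precursors, read 11.40, 6.87, 10.25 and 7.38 against 3.80 to 5.99 (median 3.99), a difference of 4.89 ± 0.36. Vcam1, an adhesion molecule for lymphocytes, read 10.02, 9.25, 9.26 and 9.28 against 6.03 to 8.36, with lymphoma 59 apart from the other 3. Its difference was 2.88 ± 0.24. These 2 genes separated the groups fully. Cxcl13, which draws B cells into follicles, read 9.87, 7.99, 8.61 and 6.51, but the other 32 reached 9.37.

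Lymphoma 78 was the highest of the 4 for several genes of high endothelial venules, the vessels through which lymphocytes enter lymph nodes, and of lymph node stroma. Lymphoma 59 was higher than lymphoma 78 for Cxcl12, Cxcl13 and Vcam1. Glycam1, a ligand of the homing receptor on these venules, read 10.45 in lymphoma 78 and 3.84, 3.85 and 4.18 in lymphomas 59, 35 and 34, against 3.61 to 4.49 in the other 32. Madcam1, the ligand of the gut homing integrin, read 8.37 in lymphoma 78 and 5.70 in lymphoma 34 against 4.80 to 5.41. Cr2, the complement receptor of mature B cells and follicular dendritic cells, read 11.02 in lymphoma 78 and 4.46 to 4.58 in the other stroma-rich lymphomas, and 4.21 to 9.99 in the 32. Grem1, an inhibitor of bone morphogenetic proteins made by lymph node stroma, read 8.82 in lymphoma 78 and 6.22 in lymphoma 34 against 4.99 to 5.87. Mfge8, a bridge for the uptake of dead cells that follicular dendritic cells secrete, read 10.96 in lymphoma 78 against 6.45 to 8.72. Over the 14 genes, the list median of lymphoma 78 was 1.75 above the others, compared with 0.91 in lymphoma 59, 0.01 in lymphoma 35 and 0.28 in lymphoma 34.

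**Figure D3:**
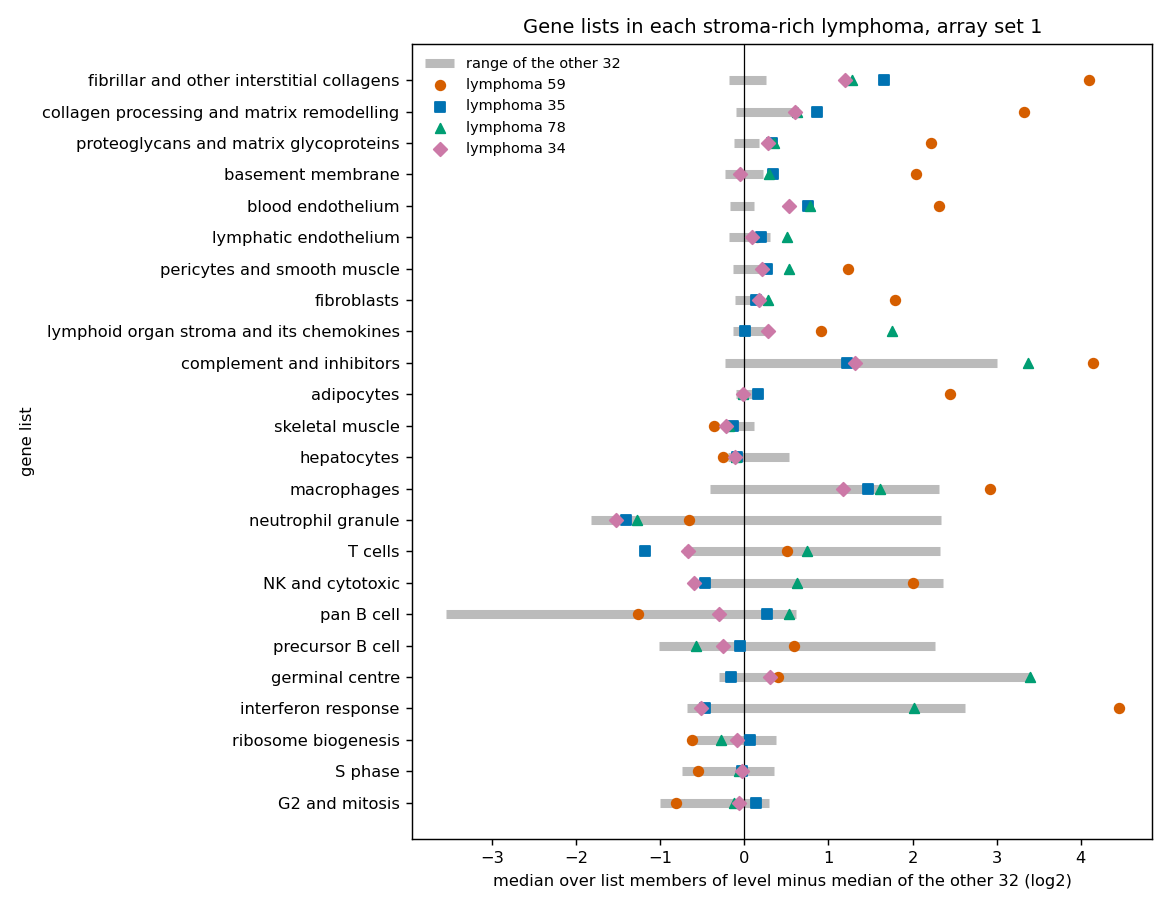
Median over the members of each gene list of the level minus the median of the other 32 lymphomas (horizontal axis, log2) in each stroma-rich lymphoma (coloured symbols). Grey bars are the range of the same value over the other 32. Collagens and blood endothelium lie outside the bars in all 4 lymphomas, adipocyte genes at 2.44 in lymphoma 59, and neutrophil genes to the left of 0 in all 4.

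Fat cell genes were highest in lymphoma 59. Adipoq, the hormone of fat cells, read 11.24 in lymphoma 59, 6.63 in lymphoma 35, 3.20 in lymphoma 78 and 4.65 in lymphoma 34, against 3.14 to 4.26 in the other 32. Car3, a carbonic anhydrase abundant in fat and muscle, read 12.88, 7.57, 3.59 and 7.56 against 3.38 to 4.70. Lymphomas 35 and 34 thus lay above the other 32 for both genes, and lymphoma 78 inside their range. Of 24 adipocyte genes 12 were called higher, and 4 without lymphoma 59, with list medians of 2.44 in lymphoma 59, 0.17 in lymphoma 35, -0.02 in lymphoma 78 and -0.02 in lymphoma 34. Ucp1, the uncoupling protein of brown fat, read 7.56 in lymphoma 59 and 3.91 to 4.12 in the other 3, against 3.67 to 4.26. Cox8b, a respiratory chain subunit of brown fat and muscle, read 8.01 in lymphoma 59 and 5.11 to 5.34 in the other 3. Fabp4, which capillary endothelium also makes, read 12.20, 11.03, 8.78 and 9.35 against 4.32 to 10.55, with lymphomas 78 and 34 inside the range of the others. Lpl read 11.69, 8.98, 9.20 and 8.81 against 4.59 to 8.65, above the other 32 in each stroma-rich lymphoma.

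Markers of other tissues that a dissection could carry along were called higher once, in the list of Schwann and nerve cells. The background is 6.01% of all genes called higher and 8.54% called lower. Skeletal muscle gave 0 of 19 genes called higher and 6 lower, stratified epithelium 0 and 2 of 11, hepatocytes 0 and 2 of 8, salivary gland 0 and 0 of 9, and pancreatic acinar cells 0 and 0 of 10. Cardiac muscle gave 0 higher and 1 lower of 8, simple epithelium 0 and 1 of 12, and Schwann and nerve cells 1 and 1 of 6. Without lymphoma 59 these lists gave 1 gene higher (in cardiac muscle) and 1 lower (in skeletal muscle). The shares of all genes in that fit were 2.33% higher and 0.839% lower. Myh7, the slow muscle myosin, was the skeletal muscle gene still called lower, at 4.02 to 4.14 in the 4 against 4.08 to 4.61, near the lowest levels on the arrays. The Schwann cell call was Pmp22, a myelin protein that fibroblasts also make, at 8.93, 7.28, 5.24 and 6.08 against 3.53 to 8.25 (limma adjusted p = 0.00134, and 0.0817 without lymphoma 59). Simple epithelium had a list median of 1.05 in lymphoma 59 and -0.28 to -0.17 in the other 3, against -0.24 to 1.25 in the other 32. Krt8, a keratin of simple epithelia, read 7.76 in lymphoma 59 and 4.12 to 4.57 in the other 3, against 4.20 to 6.67, and its difference did not pass the test (limma adjusted p = 0.212). The part of such cells in the results for lymphoma 59 was not tested. Of 9 red cell genes 2 were called higher and 0 without lymphoma 59.

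The median over macrophage genes, each taken minus its median in the other 32, was positive in all 4 lymphomas. Of 19 measured, 12 were called higher and 1 lower, compared with 6.01% and 8.54% of all genes. Without lymphoma 59, 3 were called higher, compared with 2.33% of all genes. Mertk, the receptor with which macrophages take up dead cells, read 9.54, 6.82, 8.45 and 7.27 in lymphomas 59, 35, 78 and 34 and 4.90 to 7.12 (median 5.36) in the other 32, a difference of 2.52 ± 0.35 (limma adjusted p = 8.75e-07, and 2.18e-04 without lymphoma 59). Spic, the transcription factor of splenic red pulp macrophages, read 6.48, 6.28, 6.24 and 6.48 against 5.03 to 5.96, a difference of 0.999 ± 0.115 (limma adjusted p = 1.78e-08, and 1.23e-06 without lymphoma 59). It was the list member with the smallest spread among the 4 and separated the groups fully. C1qc, a chain of the first complement component made by macrophages, read 11.76, 9.58, 10.41 and 9.37 against 4.74 to 10.10 (median 6.04), a difference of 3.73 ± 0.77 (limma adjusted p = 7.62e-04, and 0.0251 without lymphoma 59). C1qa differed by 3.45 ± 0.78 (limma adjusted p = 0.00222) and by 2.87 without lymphoma 59 (limma adjusted p = 0.0609).

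The list median of macrophage genes overlapped between the groups. It was 2.92 above the others in lymphoma 59, 1.62 in lymphoma 78, 1.47 in lymphoma 35 and 1.17 in lymphoma 34, and it reached 2.31 among the other 32, in lymphoma 52. Whether macrophage content accounts for differences in other lists was not tested beyond the covariate fit below. Mrc1, the mannose receptor, read 10.51, 7.61, 4.93 and 8.20 against 4.56 to 7.79, so lymphoma 78 was inside the range of the others. Adgre1, the F4/80 antigen, read 9.68, 6.74, 5.84 and 6.15 against 5.11 to 7.38. Siglec1, a receptor of macrophages, was the member called lower, at 5.71 to 6.09 against 5.82 to 6.44, a difference of -0.23 ± 0.08 (limma adjusted p = 0.0490, and 0.374 without lymphoma 59).

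Neutrophil granule genes lay below the median of the other 32 in the 4 lymphomas, with list medians of -0.66, -1.40, -1.28 and -1.53 in lymphomas 59, 35, 78 and 34, all inside the -1.83 to 2.34 of the other 32. Of 13 measured, 0 were called higher and 4 lower, compared with 8.54% of all genes called lower. Without lymphoma 59, 3 were called lower, compared with 0.839% of all genes. The median difference was -1.29, and -1.90 without lymphoma 59. S100a9, a subunit of the calcium-binding protein that fills neutrophil cytosol, read 8.86, 4.36, 4.79 and 6.61 in lymphomas 59, 35, 78 and 34 and 6.33 to 12.19 (median 9.86) in the other 32, a difference of -3.61 ± 0.92 (limma adjusted p = 0.00653). Its partner S100a8 read 9.59, 5.84, 5.59 and 7.67 against 6.86 to 12.58 (median 10.45), a difference of -3.13 ± 0.84 (limma adjusted p = 0.0102). Lymphomas 35 and 78 lay below every one of the other 32 for both genes, and all 4 lay below the median. Lymphoma 59, which had the highest selection score, was the highest of the 4 for both genes. Without lymphoma 78 the S100a8 difference was -2.60 (limma adjusted p = 0.0646).

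Genes of the granule proteins gave smaller differences. Ngp, a protein of specific granules, read 7.79, 5.63, 5.05 and 5.69 against 5.85 to 11.37, a difference of -2.59 ± 0.83 (limma adjusted p = 0.0300), which came to 0.0695 without lymphoma 35, 0.110 without lymphoma 78 and 0.0749 without lymphoma 34. Camp, the antimicrobial peptide cathelicidin, read 6.99, 5.05, 5.28 and 4.48 against 5.69 to 10.25, a difference of -2.14 ± 0.71 (limma adjusted p = 0.0370), and its adjusted p was 0.0570 to 0.129 when any of the 4 lymphomas was left out. Ltf, the iron-binding protein lactoferrin, read 5.82, 4.55, 4.46 and 4.68 against 4.62 to 9.58 (limma adjusted p = 0.0562). With the macrophage and T cell scores as covariates the S100a9 difference was -2.51 (limma adjusted p = 0.116). These 4 called genes and Emb, Lsp1 and Prr5 were the 7 genes lower by at least 2-fold, and without lymphoma 59 none of the last 3 was called. Emb, an adhesion protein, read 8.11, 7.63, 7.65 and 6.22 against 6.49 to 10.44, Lsp1, an actin-binding protein of leukocytes, 9.52, 10.26, 8.09 and 11.09 against 9.43 to 11.82, and Prr5, a partner of the mTOR kinase, 4.61, 6.36, 5.72 and 6.45 against 6.25 to 8.16. The adjusted p of Emb was 0.0662 to 0.226 when any of the 4 was left out, and that of Lsp1 was 0.232 without lymphoma 78.

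**Figure D4:**
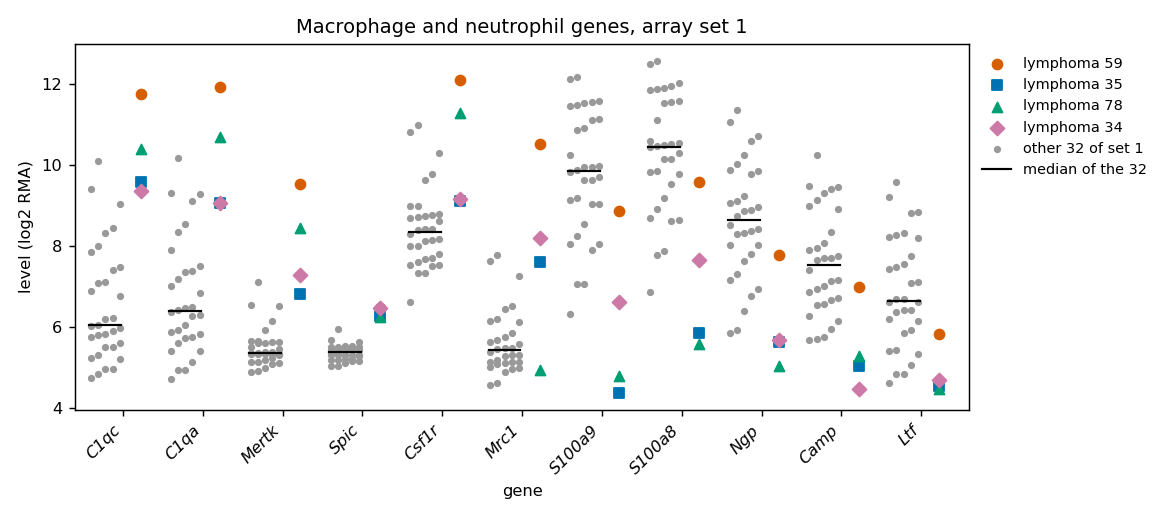
Level (log2 RMA, vertical axis) of 6 macrophage and 5 neutrophil genes (horizontal axis) in the 36 lymphomas of set 1, with the 4 stroma-rich lymphomas as coloured symbols, the other 32 as grey points and their median as black lines. The coloured symbols lie high for Spic, Mertk and C1qc and below the black line for all 5 neutrophil genes.

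Lymphocyte lists gave no gene called in either direction by limma, compared with 6.01% of all genes called higher and 8.54% called lower. T cell genes gave 0 of 15, cytotoxic genes 0 of 9, pan B cell genes 0 of 9, precursor B cell genes 0 of 14, mature B cell genes 0 of 8, germinal centre genes 0 of 4 and plasma cell genes 0 of 9. At an unadjusted p under 0.05 these lists held 1 gene, a mature B cell gene, and the share of all genes at that p was not counted. The T cell list median ran from -0.72 to 2.32 among the other 32, so a count of 0 does not show equal levels. Cd79b, a signalling chain of the B cell receptor, read 9.76, 11.98, 10.99 and 11.43 in lymphomas 59, 35, 78 and 34 against 7.91 to 12.08. Lymphoma 59 was the lowest of the 4 for Cd79b. Ms4a1, of the same list, went the other way in lymphoma 34, where its 6.33 lay below every one of the other 32. The pan B cell list median was -1.27, 0.26, 0.53 and -0.30 in lymphomas 59, 35, 78 and 34, within the -3.55 to 0.61 of the other 32. T cell genes were low in lymphoma 35, whose list median of -1.18 lay below the -0.72 of the lowest of the other 32.

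Genes of B cell stages differed among the 4 lymphomas, in RNA to which other cells also contribute. Ms4a1, the B cell antigen CD20, read 7.88, 12.42, 12.93 and 6.33 in lymphomas 59, 35, 78 and 34, and the last was below every one of the other 32 (6.88 to 13.21). Enpep, the aminopeptidase that marks precursor B cells, read 10.86 in lymphoma 59 and 3.87 to 4.83 in the other 3, against 3.31 to 10.91. Vpreb1, a part of the surrogate light chain of precursor B cells, read 12.20 in lymphoma 59 and 5.65 to 6.64 in the other 3. Reln, a secreted matrix protein, read 11.83 in lymphoma 35 and 11.57 in lymphoma 34 but 5.64 and 6.19 in lymphomas 59 and 78, against 3.75 to 12.06. Bcl6, the repressor that defines germinal centre B cells, read 10.34 in lymphoma 78 and 5.42 to 7.42 in the other 3, against 4.68 to 10.19. Gcsam, another germinal centre gene, read 9.21 in lymphoma 78 and 6.08 in lymphoma 34. The median over germinal centre genes was 3.40 in lymphoma 78, near the 3.41 of the highest of the other 32.

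**Figure D5:**
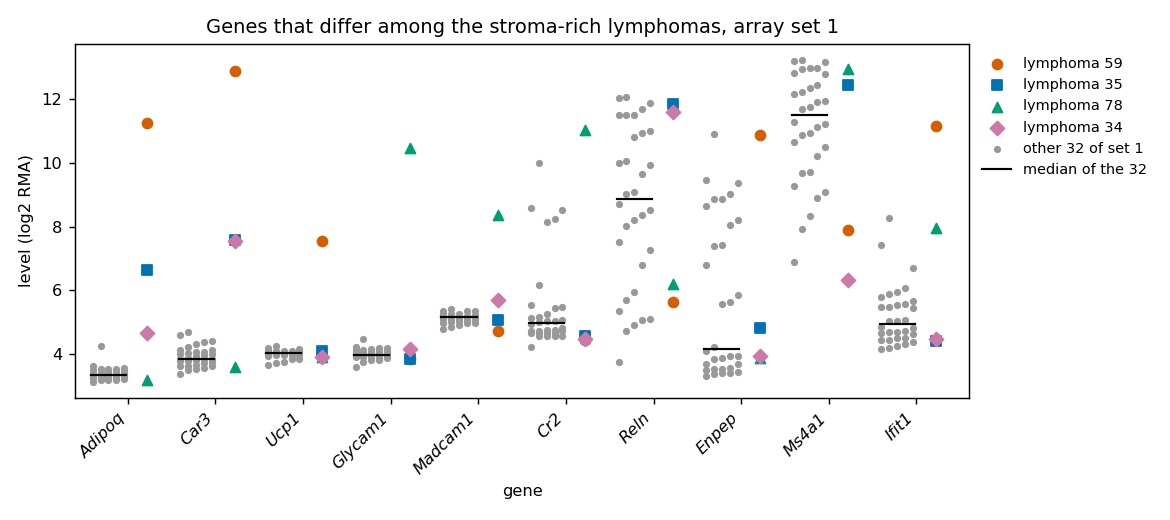
Level (log2 RMA, vertical axis) of 10 genes (horizontal axis) that differed among the 4 stroma-rich lymphomas (coloured symbols), with the other 32 lymphomas of set 1 as grey points and their median as black lines. Adipoq, Car3 and Ucp1 are highest in lymphoma 59, and Glycam1, Madcam1 and Cr2 in lymphoma 78. Among the 4, Reln is highest in lymphomas 35 and 34, inside the range of the other 32.

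Interferon response genes followed lymphomas 59 and 78. Their list median was 4.45 in lymphoma 59 and 2.02 in lymphoma 78, and -0.47 and -0.52 in lymphomas 35 and 34, against -0.69 to 2.62 in the other 32. Of 14 genes, 4 were called higher, compared with 6.01% of all genes, and 0 without lymphoma 59, compared with 2.33%. Ifit2, an antiviral RNA-binding protein, read 11.61, 7.22, 8.64 and 7.44 against 5.97 to 8.71, a difference of 1.85 ± 0.41 (limma adjusted p = 0.00175, and 0.168 without lymphoma 59). Rsad2, the antiviral enzyme viperin, differed by 2.20 ± 0.53 (limma adjusted p = 0.00420, and 0.293 without lymphoma 59). Cxcl10 and Ifit3, also called, lost the call without lymphoma 59 (limma adjusted p = 0.413 and 0.746) and without lymphoma 78 (0.251 and 0.145).

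The level of Myc, the transgene product's gene, overlapped throughout. It read 9.89, 11.19, 9.88 and 11.06 in lymphomas 59, 35, 78 and 34 against 9.15 to 11.44 in the other 32, a difference of 0.05 ± 0.30 (limma adjusted p = 0.933) whose sign turned under several settings. Of 124 genes in 7 lists of growth and division, 1 was called higher and 19 (15.3%) lower, compared with 8.54% of all genes. Ribosome biogenesis gave 3 of 22 lower, MYC metabolic targets 4 of 15, the respiratory chain 5 of 22, ribosomal proteins 3 of 13, S phase genes 1 higher and 1 lower of 20, and genes of mitosis 0 of 21, and the MYC network 3 lower of 11. Without lymphoma 59 each of these lists gave 0 in both directions, compared with 2.33% of all genes higher and 0.839% lower. Nop16, a nucleolar protein, had the largest of these differences at 8.21, 8.61, 8.46 and 9.14 against 8.66 to 9.86, or -0.73 ± 0.17 (limma adjusted p = 0.00256, and 0.0688 without lymphoma 59). All 4 lymphomas had high Xist, the RNA of the inactive X chromosome, at 12.20 to 12.78 against 6.29 to 12.71, a difference that did not pass the test (limma adjusted p = 0.0994).

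Genes called lower both with and without lymphoma 59 included several with small differences. Tescl, a gene at the low end of the arrays, read 3.51, 3.75, 3.74 and 3.68 against 3.94 to 4.66, a difference of -0.57 ± 0.08 (limma adjusted p = 6.56e-07). Klhdc4, a protein with kelch repeats, read 6.89, 7.16, 7.17 and 7.43 against 7.15 to 8.18, or -0.65 ± 0.11 (limma adjusted p = 5.59e-05). Commd1, a regulator of copper transport, read 9.05, 8.67, 9.15 and 9.17 against 9.18 to 9.98, or -0.56 ± 0.13 (limma adjusted p = 0.00273), and Zcchc17, a ribosome-associated zinc finger protein, read 7.91, 8.60, 8.06 and 8.60 against 8.61 to 9.55, or -0.54 ± 0.11 (limma adjusted p = 4.49e-04). Tescl, Commd1 and Zcchc17 lay below every one of the other 32 in all 4 lymphomas.

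A second fit asked which genes followed the selection score within the 39 lymphomas that had not been selected, and it used none of the 4 arrays. It called 103 genes (0.831%) with a positive slope and 8 (0.0646%) with a negative one. Both fits use these 39 lymphomas, so their calls are not independent. Most of the slopes rested on lymphoma 52, the next in line. Without it limma called 13 positive and 0 negative slopes (1346 and 538 at an unadjusted p under 0.05), and Serpina3n, an inhibitor of proteases, was the one gene called both with and without it.

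The rule for likeness, the correlation of levels with the score over the 39 after the mean of each whole set was subtracted, named Cxcl12 (Pearson r = 0.836), Osmr, a receptor for the cytokine oncostatin M (0.835), and Cdh11, a cadherin of mesenchymal cells (0.795). The set means of the rule include the 4 stroma-rich lymphomas, so an offset between the 32 and the 7 lymphomas remains in these values. Centred on the set means of the 39 alone, a choice made after seeing the data, r was 0.771, 0.797 and 0.758. Without lymphoma 52 it was 0.336, 0.435 and 0.380 over 38 lymphomas. The lymphomas lie in 2 array sets, and the values are a description. Per unit of the score Cxcl12 had a slope of 1.43 ± 0.19 (limma adjusted p = 4.51e-06), and 0.47 ± 0.22 without lymphoma 52 (limma adjusted p = 0.307). Serping1 had a slope of 2.67 ± 0.33 (limma adjusted p = 1.07e-06), and 1.34 ± 0.43 without lymphoma 52 (limma adjusted p = 0.153).

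Some genes with the steepest slopes in the 39 were not those of the 4 selected lymphomas. Krt19, a keratin of simple epithelia and mesothelium, had a slope of 1.77 ± 0.21 (limma adjusted p = 6.46e-07), and it read 6.76 in lymphoma 52 but 4.05 to 4.45 in the stroma-rich 4. Dmkn, a secreted protein of epithelia, read 8.26 in lymphoma 52 and 4.15 to 6.28 in the 4. Ptgis, the prostacyclin synthase, read 7.54 in lymphoma 52 and 5.23 to 7.27 in the 4. Neither Krt19, Dmkn nor Ptgis was called different in the 4 (limma adjusted p = 0.521, 0.652 and 0.626). Without lymphoma 52 their slopes had adjusted p-values of 0.170, 0.176 and 0.0610. Rgs5 and Ptprb, which separated the groups fully, had slopes near 0 in the 39, -0.02 and 0.09 (limma adjusted p = 0.997 for both).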

How the data were processed

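RNA of 43 lymphomas and 1 spleen was measured on Affymetrix mouse arrays. The authors deposited log2 values made with RMA in the affy package, per the submitters' processing notes; versions and whether both array sets were normalized together are not given in the sources used here. Of 22690 probe sets, 64 controls, 691 with several gene symbols and 1555 with none were left out, and the probe set with the highest mean stood for each of 12393 genes. Groups were compared with limma 3.58.1 (R 4.3.3, intensity trend, array set as covariate) and adjusted by Benjamini-Hochberg over 12389 genes, without the 4 selection genes. The fit of the slope on the selection score used the other 39 lymphomas. Both fits were tested on simulated data. The number of arrays limits the precision.

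The members and gene lists were chosen with earlier results of these data known. The rule for named genes took the selection genes, Myc, the 15 largest differences on each side (called, with all 4 lymphomas on one side of the 5th to 95th percentile of the other 39), the 12 most variable among the 4, the 8 strongest slopes each way, up to 4 leading genes of each list and the 3 most like the score. Acta2, Adgre1, Col1a1, Cox8b, Cxcl13, Emb, Hspg2, Kdr, Lsp1, Ltf, Madcam1, Mrc1, Pecam1, Prox1, Prr5, Siglec1, Ucp1, Vpreb1, Vwf and Xist were named after their values were seen. Other probe set rules, scalings, covariates, numbers of selected lymphomas and left-out arrays were tried as alternatives.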

Additional observations from a re-analysis of the deposited data

Results flagged for a closer look

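Of 140 measures over the 4 stroma-rich lymphomas, 25 had 1 lymphoma far from the other 3. The criterion marks about 1 in 20 groups by chance, but many of the genes had been chosen for their spread or after their values were seen, and lists share cells, so the count is a description. Lymphoma 59 was the one apart in 20 of them, lymphoma 78 in 4 and lymphoma 35 in 1.

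For lymphoma 59 the genes were Cox8b at 8.01, Enpep at 10.86, Kdr at 8.19, Krt8 at 7.76, Lpl at 11.69, Ltf at 5.82, Serpinh1 at 10.66, Ucp1 at 7.56, Vcam1 at 10.02 and Vpreb1 at 12.20, and it was the highest of the 4 for each. Its list medians minus the other 32 stood apart at 4.09 for interstitial collagens, 2.22 for proteoglycans, 3.33 for collagen processing, 2.31 for blood endothelium, 1.80 for fibroblasts and 2.44 for adipocytes. They also stood apart at 0.12 for cardiac muscle, 1.05 for simple epithelium, -0.55 for S phase and -0.29 for ribosomal proteins. Lymphoma 78 stood apart in Cr2 at 11.02, in Glycam1 at 10.45, and in the medians of germinal centre genes at 3.40 and MHC class II genes at 1.01. Lymphoma 35 had the lowest Xist, at 12.20, with the other 3 within 12.70 to 12.78.

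The spleen array, which entered no comparison, had the selection genes above all 7 lymphomas of its set. Col4a1 read 8.46 against at most 5.63, Col4a2 11.62 against 5.76, Bgn 10.77 against 6.47 and Cav1 8.77 against 6.79.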

How the results depend on the processing

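The count of genes called higher was 744, and it was 286 without the array set as covariate, 128 among genes above the median level, 339 with array weights and 448 with macrophage and T cell scores as covariates. The 1058 genes called lower were 102, 152, 233 and 274 under the same settings. They were 324 among genes with at least 1 lymphoma above its array median and 2706 with equal array medians. Leaving out each stroma-rich lymphoma in turn gave 289 (without lymphoma 59) to 842 higher and 104 (without lymphoma 59) to 1169 lower. Calls were 41.3% higher as reported, 73.5% without lymphoma 59, 62.7% with the filter on array medians, 59.3% with array weights and 62% with the 2 covariates.

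Positive slopes in the other 39 were 103 as reported, 8440 without the set, 1 among genes above the median level, 31 without the 2 lymphomas farthest from the median score and 13 without lymphoma 52. Negative slopes were 8, and 36, 4, 0 and 0 under those settings and 13 with the mean of probe sets. The slope of Ambra1 turned to 0.10 without the 2 farthest lymphomas.

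Of 785 alternatives for 40 gene results, 683 kept direction and call, 91 lost the call, 3 gained it and 8 turned. The 683 include the 4 settings that left 1 selection gene out of the score, with 32 results each. They chose the same 4 lymphomas and repeat the reported fit, so their agreement was fixed in advance. The Myc difference turned to -0.077 without the set, -0.029 with equal medians, and -0.16, -0.010 and -0.14 with the 3, 6 and 8 highest lymphomas. Leaving out 1 of the 4 gave -0.18 (lymphoma 35) to 0.26 (lymphoma 78), with -0.14 without lymphoma 34. The causes were not tested. The alternative without lymphoma 52 was chosen after seeing the data. No paired analysis was possible because the title numbers name single lymphomas and pair none. The small number of stroma-rich arrays, 4, and low signals limit small differences.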
